A study of Mus musculus with 12 samples.

Results

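Tspan2, Parvb, Ighm, Rtkn2 and Rgs10 are 5 of the 52535 genes counted in mouse T-cell lymphoma cells, and the transcript of each was lower after the β-catenin/Tcf inhibitor PKF118-310. They were chosen by their measured values, as genes outside lipid metabolism among the largest falls after treatment over all lines together, so their treatment values are given as a description with no test. All 5 of 5 passed the filter on low counts that left 10331 genes in the fit of 3 lines and 11760 genes in the fit of lines 240 and 352. The cells were T-ALL lines 240, 242 and 352, each grown from the thymic tumor of 1 mouse that carried both Dlx5 and an activated, myristoylated Akt2 as transgenes, each driven by the T-cell promoter Lck. One library per line came from cells treated with PKF118-310, at 1 µM for 20 h per the methods of the study, and one from placebo-treated control cells. Treated and control cells therefore shared both transgenes, and no cells without them were used here.

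The 5 genes belong to different families. Tspan2 is a tetraspanin, one of a family of proteins that cross the membrane repeatedly and gather receptors and integrins into patches of the cell surface. Parvb encodes β-parvin, an actin-binding protein that joins integrin-linked kinase (ILK) at sites of adhesion. Ighm is the constant region of the μ heavy chain of IgM, which B cells splice to a rearranged variable region. Germline μ transcripts without a rearranged variable region are also known in T-lineage cells, which do not make antibody. Rtkn2 encodes rhotekin 2, a relative of the signaling protein rhotekin that is expressed in lymphocytes. Rgs10 encodes a regulator of G protein signaling, which speeds the shut-off of G protein alpha subunits downstream of chemokine receptors and other receptors.

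The 6 libraries differed in depth. Summed counts were 3160824 and 4031144 in treated and control cells of line 240, 604984 and 3354980 in those of line 242, and 13766638 and 13221186 in those of line 352. The treated library of line 242 stood apart, with the fewest counts and 11.8% of them from mitochondrially encoded genes, against 1.84 to 3.10% in the others. Levels are given as CPM, counts divided by library size in units of 1e+06 after edgeR's TMM scaling. A gene with 0 counts may still have a level of up to 3 counts, which equal 5.57 CPM in that library and 0.210 to 0.957 CPM in the other 5. T-cell markers summed to 2750 to 4951 CPM in treated and 3638 to 4471 CPM in control cells. Of markers of other lineages, Lyz2, Hbb-bs, Ppbp and Ncr1 had 0 counts in every library, but others were present. Myeloid markers summed to 11.2 to 59.4 CPM in treated and 10.4 to 44.0 CPM in control cells, with Itgam highest on average. Stromal and endothelial markers summed to 45.6 to 79.8 and 44.9 to 70.8 CPM, with Pecam1 highest on average. Cd5, a defining T-cell marker, was at 0 in both libraries of line 242 and at most 1.59 CPM elsewhere. In bulk RNA, fewer cells of a type and less RNA per cell cannot be told apart.

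The promoters of Parvb and Rgs10 are shown because the levels of this pair ran closest together across the libraries. The RefSeq promoter table, in build GRCm38.p6, matched 3 of the 5 genes (Tspan2, Parvb and Rgs10). The 250 bases before the start are printed 5′ to 3′ along the gene's strand. Capitals mark GC boxes, here the letters GGGCGG on either strand. The Parvb window is chr15:84231793-84232042 on the plus strand, and the Rgs10 window is chr7:128418173-128418422 on the minus strand. RefSeq starts can differ from the ends of the gene spans given below. The Rgs10 window and most of the window of the first Tspan2 start lie inside those spans.
Parvb: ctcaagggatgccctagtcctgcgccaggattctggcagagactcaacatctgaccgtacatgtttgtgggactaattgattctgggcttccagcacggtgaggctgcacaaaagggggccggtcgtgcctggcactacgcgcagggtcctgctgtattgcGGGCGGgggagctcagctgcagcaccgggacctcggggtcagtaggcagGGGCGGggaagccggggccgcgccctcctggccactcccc
Rgs10: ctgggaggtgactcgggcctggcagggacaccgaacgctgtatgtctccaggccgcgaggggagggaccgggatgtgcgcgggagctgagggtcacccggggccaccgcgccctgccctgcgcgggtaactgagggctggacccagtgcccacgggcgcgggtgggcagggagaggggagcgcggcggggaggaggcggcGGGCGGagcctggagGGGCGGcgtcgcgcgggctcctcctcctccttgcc
Each window held 2 GC boxes, 89 and 40 bases before the start in Parvb and 50 and 35 bases before it in Rgs10. Of all 32851 promoter windows of this length, 32.7% held at least one. The window of the first Tspan2 start held no GC box and 1 match to the Runx letters TGTGGT, which 14.0% of all windows held. The core letters of Tcf/Lef sites, CTTTGA, were found on neither strand of these 3 windows and in 13.8% of all windows. The 3 windows also held no SREBP motif (by its letters TCACNCCAC, in 1.05% of all windows), no palindromic E-box CACGTG (6.02%) and no AP-1 motif TGANTCA (6.75%). The octamer ATTTGCAT (1.60% of all windows) and the TATA box TATAAA (12.4%) were not found in them either. The window of the second Tspan2 start held none of the 8 motifs searched. All of these results are matches of letters, and no match says only that the letters are not in the window.

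Tspan2 (chromosome 3, 102734529 to 102801513, plus strand, mm10) had 6.38, 11.1 and 2.10 CPM in PKF118-310 treated cells of lines 240, 242 and 352, against 17.6, 43.7 and 6.05 CPM in their controls. The values rested on 20, 6 and 30 treated counts and 71, 139 and 82 control counts. Every treated library was below its own control, yet the groups overlapped, because the control of line 352 was lower than the treated cells of lines 240 and 242. The mean was 6.54 ± 4.52 CPM in treated and 22.5 ± 19.3 CPM in control cells (SD, n = 3 libraries each), so the spread between lines was large beside the difference. Within a line, the treated level was 2.76-fold, 3.93-fold and 2.89-fold lower than the control in lines 240, 242 and 352. On the log2 scale, with a prior count of 2, the changes were -1.42, -1.94 and -1.40. The counting intervals of the other genes are exact 95% binomial intervals on the 2 counts of a line. They describe counting error only, since reads are not independent molecules, and test neither the change nor a difference between lines.

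Parvb (chromosome 15, 84232043 to 84315688, plus strand) was the least counted of the 5. It had 6.06, 1.86 and 2.37 CPM in treated cells of lines 240, 242 and 352, against 10.7, 3.77 and 8.93 CPM in controls. The treated library of line 242 held 1 count and its control 12. Treated cells were again lower in each line and the groups overlapped. The log2 changes were -0.79, -0.91 and -1.78. For line 242, the level left after treatment was 49.2% of the control, with a counting interval of 1.15 to 332%, so no direction was detectable there at this depth. In line 352, 26.6% of the control level was left (interval 17.6 to 39.2%).

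Ighm (chromosome 12, 113418558 to 113422730, minus strand) had 81.6, 33.4 and 8.94 CPM in treated cells of lines 240, 242 and 352, against 150, 53.8 and 29.7 CPM in controls. Treated cells of line 240 exceeded the controls of the other lines, and those of line 352 were lowest. The level left after treatment was 54.3% in line 240 (interval 46.7 to 63.0%), 62.1% in line 242 (36.0 to 101%) and 30.1% in line 352 (24.5 to 36.9%).

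Among the immunoglobulin constant genes, the signal came from Ighm. It had 1581 counts over the 6 libraries, against 1 count for Ighd, the neighboring δ constant region, and 0 for the 6 other heavy chain constant genes and 4 light chain constant genes. The heavy chain J segments and D segments had 0 counts. Heavy chain V segments had 2, 7 and 6 counts in treated cells of lines 240, 242 and 352 and 0 in every control. Light chain V and J segments had 25, 101 and 10 counts in treated cells and 1, 1 and 0 in controls. Thus Ighm was lower after treatment in each line while the few variable segment counts lay mostly in treated libraries, above all in the treated library of line 242, where they exceeded the 18 counts of Ighm. The number of genes with at least 1 count was also higher in treated cells of every line, at 18155, 21241 and 21049, against 15150, 14175 and 17495 in controls.

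B-cell markers moved with that library as well, and so did several markers of other lineages. Treated cells of line 242 had Col1a1 at 26.0, Cdh5 at 20.4, Kdr at 7.42 and Mpo at 7.42 CPM, with 0 CPM of each in the control. Pecam1 went the other way there, at 18.6 against 44.7 CPM. The 8 B-cell markers summed to 4.15, 134 and 4.89 CPM in treated cells of lines 240, 242 and 352, against 0.992, 0.314 and 4.13 CPM in controls. In treated cells of line 242 the sum was carried by the transcription factors Pax5, at 79.8 CPM, and Ebf1, at 50.1 CPM, with 0 counts of each in the control. Cd79b, a subunit of the B-cell receptor, had 0 counts in that library, and Cd79a and Ms4a1 had 1 count each (1.86 CPM). As 3 counts equal 5.57 CPM there, Kdr and Mpo at 7.42 CPM also rested on few counts. The part of B-cell markers in the Ighm values was not tested.

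Rtkn2 (chromosome 10, 67979570 to 68059740, plus strand) had 30.0, 66.8 and 15.9 CPM in treated cells of lines 240, 242 and 352, against 61.5, 76.1 and 42.3 CPM in controls. The level was about halved in line 240 and lower still in line 352, but treated and control cells of line 242 were close. The level left was 48.7% in line 240 (interval 38.0 to 62.0%), 87.8% in line 242 (60.1 to 125%) and 37.7% in line 352 (32.2 to 44.0%). In line 242 its log2 change was -0.19, and 40.3% of the genes tested had a lower one. The data of that line by themselves thus go against counting Rtkn2 among the strongest falls. Its changes in lines 240 and 352 were -1.03 and -1.39. In line 242, the share of genes with a lower change was 19.5% for Ighm, 13.9% for Rgs10, 12.3% for Parvb and 2.24% for Tspan2. Ighm, Rgs10 and Parvb were thus not among the strongest falls of that line either.

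Rgs10 (chromosome 7, 128373621 to 128418758, minus strand) had 50.7, 16.7 and 16.6 CPM in treated cells of lines 240, 242 and 352, against 77.9, 30.5 and 53.4 CPM in controls. Treated cells were lower in each line, and the groups overlapped, since treated cells of line 240 exceeded the control of line 242. The level left was 65.1% in line 240 (interval 53.4 to 79.0%), 54.8% in line 242 (24.3 to 108%) and 31.0% in line 352 (26.6 to 35.9%). In lines 240 and 352 the counting intervals of all 5 genes lay below the control level. In line 242 this held for 1 of the 5, Tspan2, and no direction was detectable for the others at that depth.

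**Figure D1:**
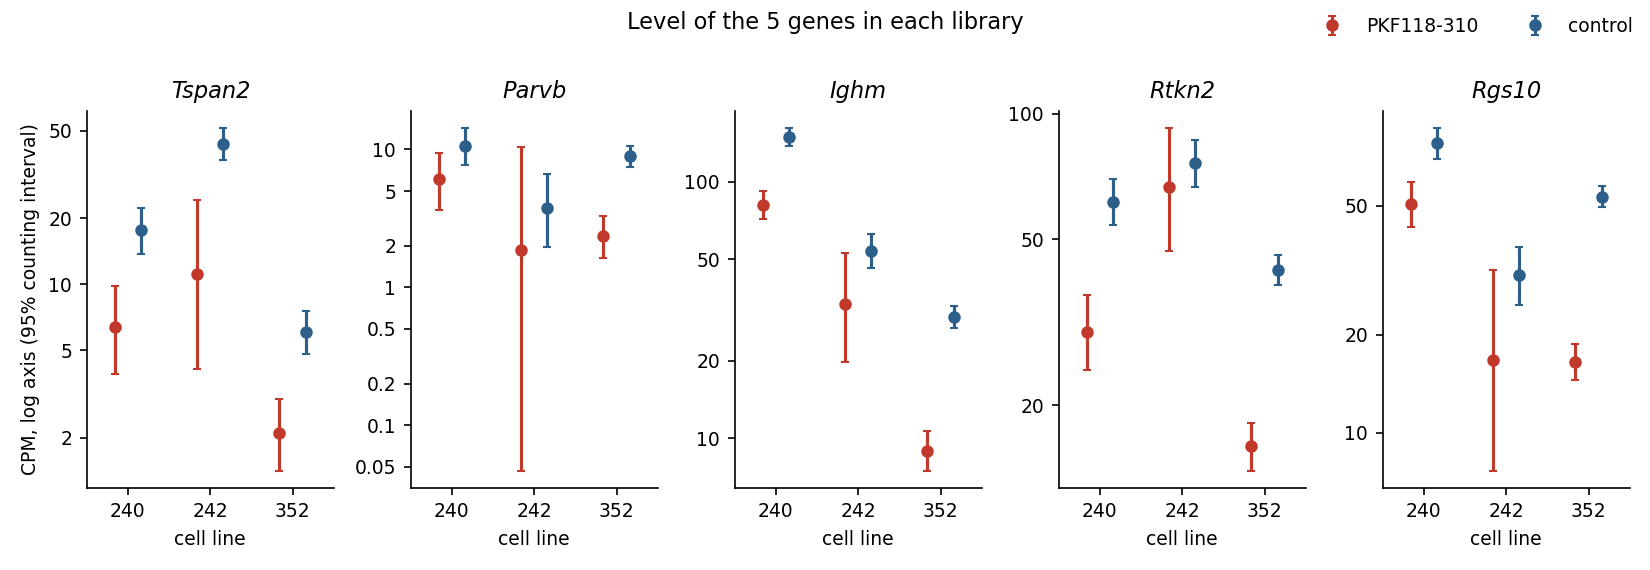
Level of each gene in CPM (vertical, log axis) by cell line (horizontal), with the PKF118-310 treated library in red left of its control in blue. Points are 1 library each and bars are 95% Poisson intervals on the counts. Red lies below blue in every line, with the widest bars in treated cells of line 242, where Parvb had 1 count, and with Rtkn2 of line 242 nearly level at 66.8 and 76.1 CPM.

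All 5 genes had a log2 change below 0 in each of the 3 lines, as did 17% of the 10331 genes tested, a share beside which nothing is read because this contrast chose the genes. None of the 5 had every treated library below every control library, a pattern that 2.87% of all genes showed. In lines 240, 242 and 352 the 5 genes had median changes of -0.88, -0.86 and -1.67, against medians of all genes of 0.00140, 0 and -0.00150. Changes of all genes spread far more in line 242 (SD 1.33) than in lines 240 (SD 0.51) and 352 (SD 0.47), so that a given fall ranks lower there. Over all lines, edgeR's fitted log2 changes were -1.62 ± 0.30 for Tspan2, -1.33 ± 0.51 for Parvb, -1.15 ± 0.25 for Ighm, -1.11 ± 0.28 for Rgs10 and -0.93 ± 0.27 for Rtkn2 (SE, n = 3 lines). From lowest to highest among 10331 genes these ranked 9, 22, 57, 67 and 120. In lines 240 and 352 alone, where line 242 was left out because earlier results had shown its treated library to stand apart, the values were -1.50 ± 0.34, -1.46 ± 0.38, -1.27 ± 0.17, -1.21 ± 0.20 and -1.26 ± 0.15 in the same order of genes (SE, n = 2 lines). There the 5 genes drew closer together and their ranks were 94 to 190 of 11760.

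**Figure D2:**
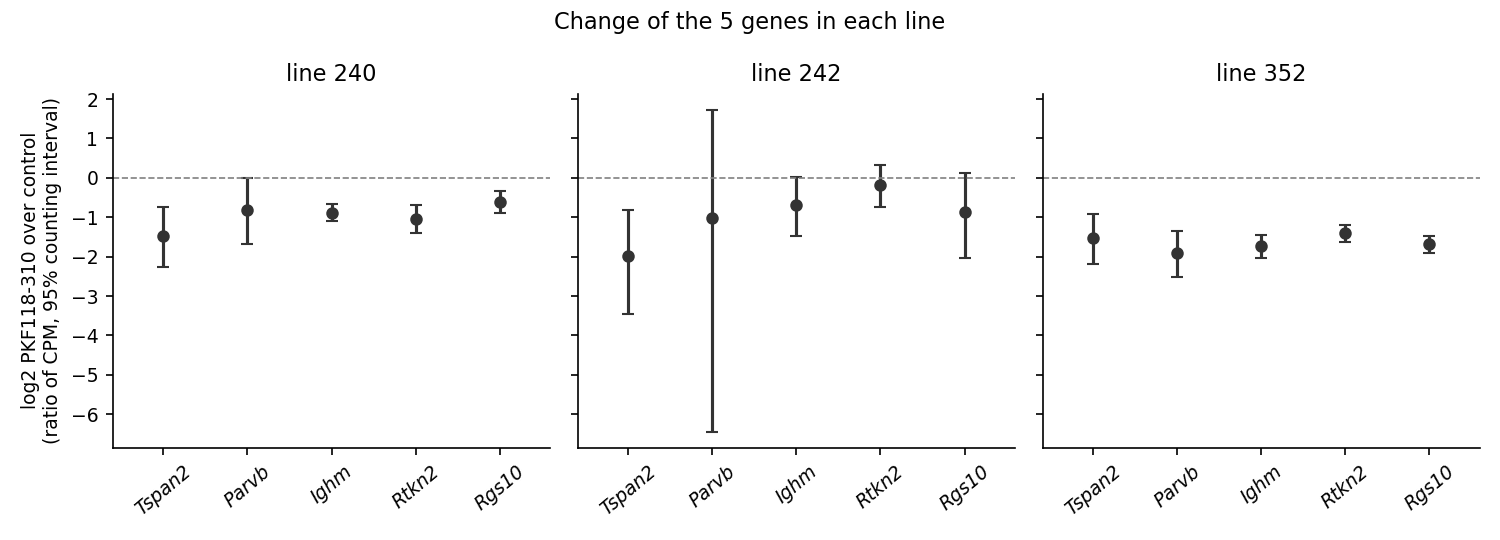
Log2 ratio of CPM after PKF118-310 over control (vertical) for the 5 genes in each line, with exact 95% binomial intervals that cover counting error only. All points lie below 0, and the intervals are widest in line 242, where Parvb had 1 treated count and the Rtkn2 point lies at -0.19.

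Levels between the lines, unlike the response to treatment, were not themselves used in choosing the genes and were tested. The question was whether lines 240, 242 and 352 carried different amounts of these transcripts with treatment held constant in the model. Tspan2 and Ighm differed between lines and the other genes did not pass the threshold of 0.05 (edgeR's quasi-likelihood test, adjusted p = 0.0468 for Tspan2, 0.0297 for Ighm, 0.102 for Rgs10, 0.127 for Rtkn2 and 0.301 for Parvb). That is 2 of 5 genes, where 5.32% of all 10331 genes differed. There was 1 library per line and group, so these p-values measure the spread between single libraries of each line. That spread comes from how treatment changes differ between lines. Those changes entered the choice of genes, so the test is not wholly free of it.

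The order of the lines was not the same for each gene. Averaged over treated and control libraries, Tspan2 was highest in line 242, at 27.4 CPM, and lowest in line 352, at 4.07 CPM, with line 240 at 12.0 CPM. Rtkn2 had the same order of lines, at 71.5, 45.8 and 29.1 CPM in lines 242, 240 and 352. Ighm was highest in line 240, at 116 CPM, followed by line 242 at 43.6 CPM and line 352 at 19.3 CPM. Parvb and Rgs10 were also highest in line 240 but lowest in line 242, with 8.36, 5.65 and 2.81 CPM for Parvb and 64.3, 35.0 and 23.6 CPM for Rgs10 in lines 240, 352 and 242. The highest line exceeded the lowest 6.73-fold for Tspan2 and 6.01-fold for Ighm.

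Lines set against each other in pairs showed which steps of these orders exceeded the spread. Between lines 240 and 352, Tspan2 (adjusted p = 0.00247), Ighm (8.77e-08), Rgs10 (0.00140) and Rtkn2 (0.00311) differed by edgeR's test, each lower in line 352, and Parvb did not pass (0.169), but 44.7% of all genes differed in that pair. Between lines 242 and 352, Tspan2 differed (adjusted p = 0.0335), where 7.29% of all genes did, and Rtkn2 (0.0558), Ighm (0.121), Rgs10 (0.647) and Parvb (0.734) did not pass. Between lines 242 and 240, where 2.05% of all genes differed, none of the 5 passed, with adjusted p of 0.651 for Tspan2 and 0.0961 for Ighm. The call for Tspan2 over all lines was near the threshold and was lost with scaling by library totals (adjusted p = 0.0505) and with lane 2 alone (0.0642).

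Levels of different genes can be compared only per length of transcript. Per kilobase of annotated exons (union over GENCODE vM21 transcripts), Ighm was the highest of the 5, at 21.9 ± 19.6 CPM per kb in treated and 41.3 ± 33.9 CPM per kb in control cells (SD, n = 3 libraries each). Rgs10 followed at 16.4 ± 11.5 and 31.5 ± 13.9 CPM per kb, and Rtkn2 at 6.77 ± 4.74 and 10.8 ± 3.06 CPM per kb in treated and control cells. Tspan2, at 1.37 ± 0.95 and 4.72 ± 4.06 CPM per kb, and Parvb, at 0.777 ± 0.519 and 1.76 ± 0.81 CPM per kb, were the lowest in both groups. In controls, Rgs10 (lowest library 17.8 CPM per kb) lay above Rtkn2 (highest library 13.7 CPM per kb), and every other pair of neighbors in this order overlapped.

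Across the 6 libraries, Parvb and Rgs10 ran together, with a Pearson r of 0.981 between their log2 CPM, and Rgs10 was the gene most like Parvb among the 9248 searched. Tspan2 and Rtkn2 had r = 0.908. Rtkn2 had r = 0.160 with Parvb and 0.251 with Rgs10, and Tspan2 had 0.169 and 0.276 with the same pair. These values describe 6 libraries that share lines and depth and carry no test. The genes were also chosen on falls in these libraries, and Parvb in treated cells of line 242 rested on 1 count. In words, all 4 genes were lower in treated cells, and Parvb and Rgs10 were low in line 242 where Tspan2 and Rtkn2 were high.

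**Figure D3:**
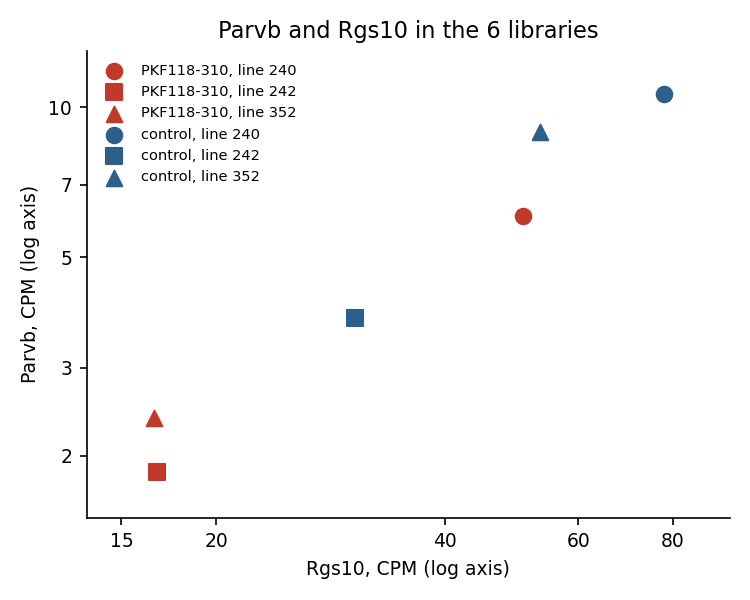
Parvb (vertical) against Rgs10 (horizontal), both in CPM on log axes, with 1 point for each of 6 libraries, PKF118-310 in red and control in blue, and the shape giving the line. Points run from the treated libraries of lines 242 and 352 (16.7 and 16.6 CPM of Rgs10) up to the control of line 240 (77.9 CPM of Rgs10 and 10.7 CPM of Parvb). The Parvb value of the treated library of line 242 rests on 1 count.

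Other genes followed some of the 5 closely over the 6 libraries. Cd3d, a subunit of the CD3 complex of the T-cell receptor, was the gene most like Rgs10 (r = 0.990), with 236, 100 and 107 CPM in treated cells of lines 240, 242 and 352, against 299, 151 and 205 CPM in controls. Its treatment values are given with no test, since it was found by its likeness to a gene chosen on them. The other T-cell markers did not pass in lines 240 and 352, with log2 changes of -0.19 for Cd3e, -0.16 for Cd3g, -0.0081 for Lck and 0.27 for Thy1 (edgeR adjusted p = 0.382, 0.428, 0.977 and 0.216). Bcl11b, lower in treated cells of each line, had -0.37 (edgeR adjusted p = 0.0617). In line 240, Cd4, Cd8a, Cd8b1, Lck and Thy1 were higher in treated than in control cells. All of these were lower in treated cells of line 242, and all but Thy1 were lower in those of line 352. The genes most like Tspan2 were Hsd17b7, an enzyme of cholesterol synthesis (r = 0.992), Nucks1 (0.992) and Zdhhc17 (0.988). For Ighm they were Dynlt1b (0.994), Rmnd5a (0.993) and Mr1, which presents small metabolites to T cells (0.991), and for Rtkn2 they were Zfp367 (0.997), Srp9 (0.991) and Micu2 (0.983). Mapk6 (0.980) and Tdp1 (0.979) came next for Parvb, and Vdac1 (0.987) and Pcm1 (0.984) for Rgs10. The changes of these other genes were smaller than those of the gene they followed. Zdhhc17, for example, changed by -0.13, -0.33 and -0.16 in lines 240, 242 and 352, beside the Tspan2 changes given above.

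Related genes, listed by family for Tspan2, Parvb, Ighm and Rgs10, show whether relatives moved with them. In the fit of 3 lines, 0 genes of these lists passed edgeR's test in either direction, as was so for all 10331 genes (0% lower and 0% higher), with 570 genes at an unadjusted p under 0.05 and 45 passing with DESeq2. The counts below are therefore from lines 240 and 352, where 5.92% of 11760 genes fell and 5.01% rose. Without the line as a block, 0 genes passed in these lines either. The median fitted change of all genes there was -0.00569.

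Of the tetraspanins, 26 were listed and 17 tested, of which 3 fell, 1 rose and 13 did not pass (median log2 change 0.01). Tspan9 had 104 and 37 counts in treated cells of lines 240 and 352, against 346 and 133 in controls, and fell by 1.59 (SE 0.20, adjusted p = 6.28e-04). Tspan15, which guides the protease Adam10 to the cell surface, fell by 1.13 (SE 0.29, adjusted p = 0.0290). Cd82 fell by 0.44 (SE 0.12, adjusted p = 0.0318), and Cd81, which B and T cells both carry, rose (log2 change 0.43 ± 0.13, adjusted p = 0.0458). The falls of Tspan9 and Tspan15 were not seen in line 242, where their changes of 0.88 and 3.84 rested on 7 and 24 treated counts and 22 and 9 control counts. Cd82 had changes of -0.23, -0.39 and -0.59 in lines 240, 242 and 352.

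Of the 24 genes of parvins, ILK and integrin adhesion, 21 were tested, 2 fell, 0 rose and 19 did not pass (median 0.01). Itga6, the integrin α6 subunit, fell by 0.50 (SE 0.10, adjusted p = 0.0107), and Pxn, which encodes the adaptor paxillin, fell by 0.45 (SE 0.12, adjusted p = 0.0304). Itga6 had -0.43, -0.47 and -0.54 in lines 240, 242 and 352. Parvg, the leukocyte parvin and the nearest neighbor of Parvb, had a change of 0.01 ± 0.11 (adjusted p = 0.965) in lines 240 and 352. In line 242 its change was -0.69, on 74 counts in treated and 706 counts in control cells. Parva had at most 6 counts in a library and was not tested. Ilk, the kinase that binds the parvins, had -0.20 ± 0.11 (adjusted p = 0.256).

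Of the 28 immunoglobulin and B-lineage genes, 11 had 0 counts in every library and 4 were tested, of which 1 rose, 0 fell and 3 did not pass. The gene that rose was Pax5, named here after its values were seen, with 7 and 16 counts in treated cells of lines 240 and 352, against 1 and 0 in controls (log2 change 4.27 ± 1.21, adjusted p = 0.0412). With so few control counts, Pax5 passed the filter on low counts only through its treated libraries. Only a rise could therefore be called for it, and nothing is read from the call. Cd24a, which immature T cells carry as well, had 0.23 ± 0.13 (adjusted p = 0.291).

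Of the 29 RGS proteins and G alpha subunits, 13 were tested, 3 fell, 0 rose and 10 did not pass (median -0.17). Rgs3 had 13 and 66 counts in treated cells of lines 240 and 352, against 21 and 221 in controls, and fell by 1.42 (SE 0.36, adjusted p = 0.0267). Rgs11, named after its values were seen because it lies under 5 CPM, fell by 1.88 (SE 0.56, adjusted p = 0.0482). Gna13, the G protein alpha-13 subunit, fell by 0.49 (SE 0.11, adjusted p = 0.0130). Gnai2, an alpha subunit on which Rgs10 is known to act, had -0.37 ± 0.11 (adjusted p = 0.0518). Rgs3 and Rgs11 had changes above 0 in line 242, with at most 4 counts there in any library.

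**Figure D4:**
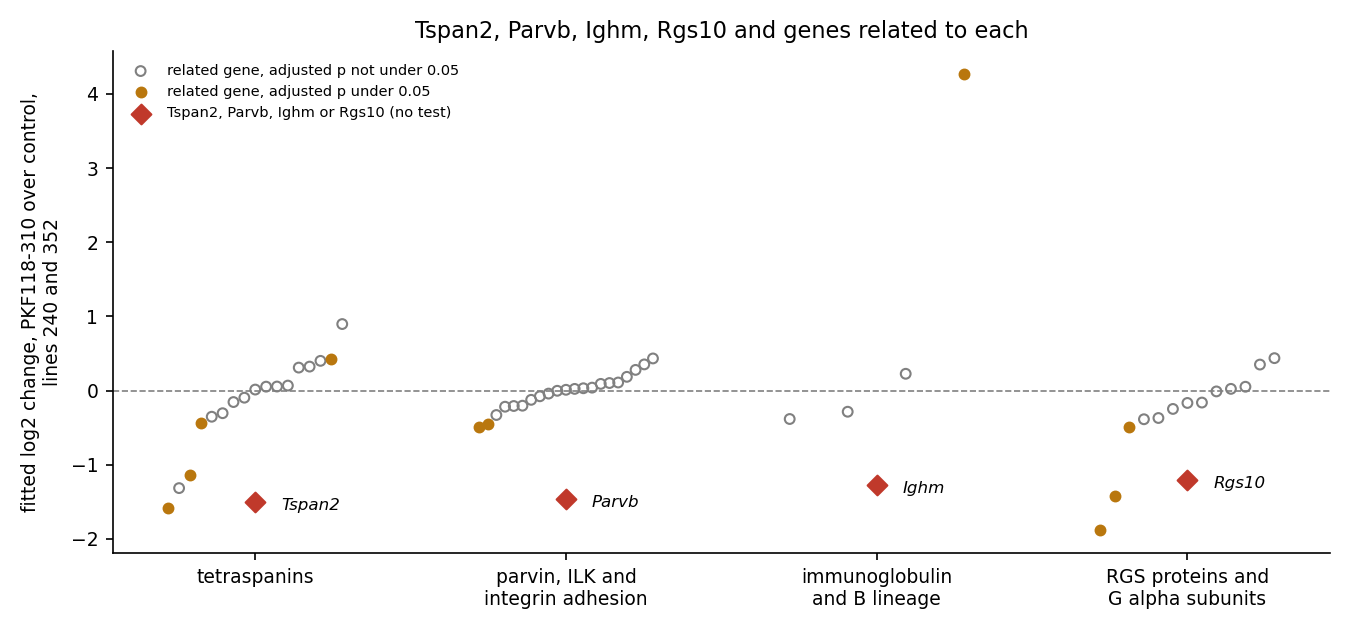
Fitted log2 change after PKF118-310 over control in lines 240 and 352 (vertical), with 1 point per tested gene, by the family of Tspan2, Parvb, Ighm and Rgs10 (horizontal). Red diamonds are these genes, shown without a test, filled points are related genes with an adjusted p under 0.05 (3, 2, 0 and 3 lower, and 1 tetraspanin and Pax5 higher) and open points are the rest, most of which lie near 0. Pax5 passed the filter on low counts only through its treated libraries.

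The nearest tested genes on either side of the 5 did not share their falls as a group. Their distances ran from 8.34 kb (Parvg from Parvb) to 2784 kb (Wdr60 from Ighm), since genes not tested were passed over. Among the 20 nearest tested neighbors, 2 on either side of each gene, 1 fell, 2 rose and 17 did not pass in lines 240 and 352, with a median change of 0.01. Igsf3, an immunoglobulin superfamily member 1271 kb from Tspan2, fell by 0.76 (SE 0.17, adjusted p = 0.0144). Samm50, a subunit of the sorting machinery of the outer mitochondrial membrane 17.7 kb from Parvb, rose by 0.42 (SE 0.11, adjusted p = 0.0309), and Zfp365, 66.9 kb from Rtkn2, rose by 1.18 (SE 0.24, adjusted p = 0.00896). The nearest tested neighbor of Rgs10, Tial1, an RNA-binding protein gene 21.0 kb away, had -0.17 ± 0.11 (adjusted p = 0.347). Genes overlapping the 5 had few counts. Tspan2os and Gm16212, antisense to exons of Tspan2 and Rtkn2, had 0 counts, and Gm42681, Tshb and Gm15503, which lie within introns of Tspan2 and Rgs10, had 19, 11 and 28 counts over all libraries. The strand setting of the counting is not given in the sources used here. How reads from the stretches that Tspan2 and Rtkn2 share with their antisense partners were assigned is therefore not known.

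**Figure D5:**
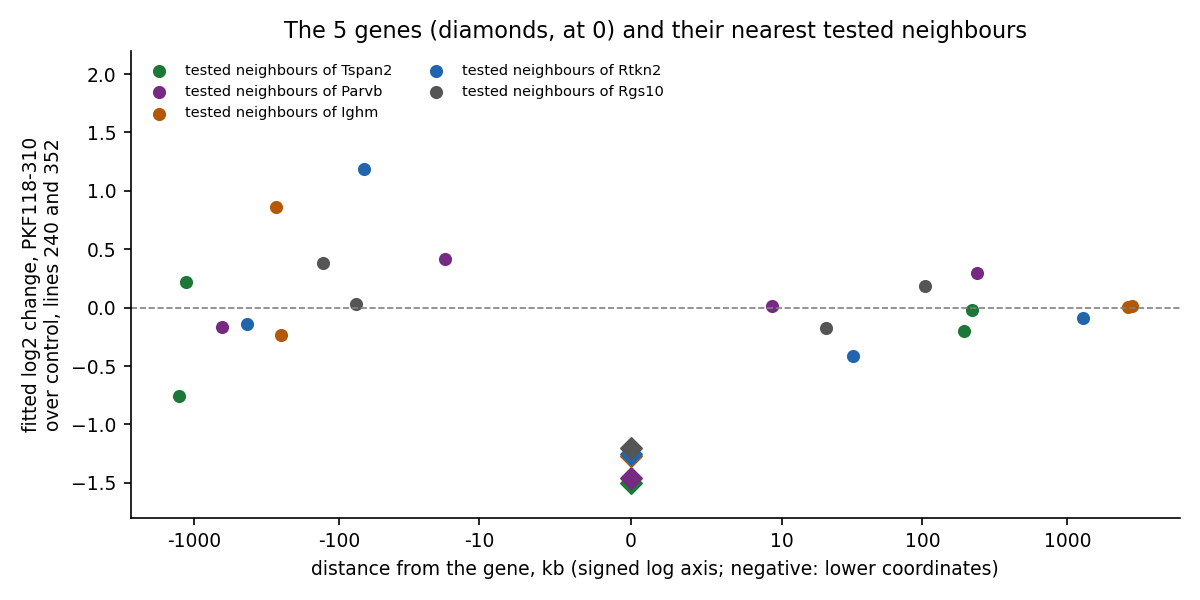
Fitted log2 change after PKF118-310 over control in lines 240 and 352 (vertical) against distance from the gene in kb (horizontal, signed log axis, with lower chromosome coordinates to the left). Diamonds at 0 are the 5 genes, all between -1.50 and -1.21, and circles in the same color are their 2 nearest tested neighbors on either side, which spread from -0.76 to 1.18 around a median of 0.01.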

How the data were processed

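Counts per gene were deposited by the authors as 12 files, 2 sequencing lanes for each of 6 stranded poly(A) libraries, with no normalization. HISAT2, HTSeq and edgeR, with the build mm10, are listed in the submitters' processing notes, and TopHat in the methods of the study. Versions, annotation and strand setting were not given in the sources used here. Lanes were summed, since the labels describe 1 library run in 2 lanes. A supplementary legend of the study speaks of 2 controls and 2 treated cultures per line. Such duplicates are not marked in the labels. Over all genes, lanes differed by sampling noise in lines 240 and 242 (chi-square per degree of freedom 0.982 to 1.02) and by more in line 352 (2.05 in treated and 2.01 in control cells). The lane split of the 5 genes was compared in 30 exact tests, of which 3 had an unadjusted p under 0.05 and 0 an adjusted one (smallest adjusted p 0.0787).

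Tests were run with edgeR 4.0.16 under R 4.3.3 (filterByExpr, TMM, quasi-likelihood F test, Benjamini-Hochberg adjustment over all genes, threshold 0.05), with the cell line as a block. Each line is a different mouse, and libraries of a line deviated together from the group means (r = 0.657, 0.319 and 0.800 in lines 240, 242 and 352). Scripts were tested on simulated counts. Within-line log2 changes used a prior count of 2. Alternatives were no block, DESeq2 size factors, library totals, no filter, DESeq2 1.42.0, each lane alone and each line left out. The genes and lists were chosen with earlier results of these data known. Besides the 5 genes, the text names from each list genes averaging at least 5 CPM (up to 4 by smallest p, and those past the threshold in lines 240 and 352), the 3 genes most correlated with each of the 5 (no predicted genes or pseudogenes), the 2 nearest tested neighbors on either side, and overlapping genes. From the lists and neighbors, some genes that the rule takes are given in counts only. Some genes and 1 list that the rule takes are not reported here.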

Additional observations from a re-analysis of the deposited data

Results flagged for a closer look

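In 3 of the related and neighboring genes named above, line 242 moved opposite to lines 240 and 352, in each line beyond counting error. The difference between lines was not tested. Tspan15 had a log2 change of 3.84 in line 242, against -0.71 and -1.42 in lines 240 and 352. Cd24a had -0.60 in line 242, against 0.13 and 0.33. Samm50, a neighbor of Parvb, had -0.87, against 0.57 and 0.31. The pattern was not limited to these 3. Among listed genes not named above, Rgs12 had 0.80 in line 242, against -0.36 and -0.40, and Lims1 had 0.53, against -0.17 and -0.23.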

How the results depend on the processing

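The fitted log2 changes of the 5 genes stayed below 0 in each alternative run, 9 for Parvb, which was not tested with lane 1 alone, and 10 for the other genes. They ran from -2.16 to -1.24 for Tspan2, -1.66 to -0.89 for Parvb, -1.30 to -0.82 for Ighm, -1.26 to -0.65 for Rtkn2 and -1.40 to -0.74 for Rgs10. Counts of genes past the threshold moved more. Genes differing between lines numbered 550, 3009 with no filter, 1665 with DESeq2, 847 with lane 1 alone and 209 to 5257 with a line left out. Rtkn2 and Rgs10 passed that test with no filter (adjusted p = 0.00901 and 1.08e-04) and with DESeq2 (0.0461 and 0.0332). Genes changed by treatment in 3 lines numbered 0 in edgeR, 312 with no filter, 45 with DESeq2 and 3 to 1285 with a line left out. In lines 240 and 352 they numbered 1285, 268 with DESeq2, 753 with lane 2 alone and 0 with no replicate block, and without the replicate block the 3-line count was also 0. Leaving out a line of these was not run, since 1 line leaves no residual degrees of freedom. The causes were not tested. Depth limited line 242, where Parvb and Tspan2 had 1 and 6 treated counts.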
